A study of Mus musculus with 8 samples.

Results

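The lysosomal cathepsins are proteases that digest protein inside the lysosome, and 10 of their genes were examined here in bone marrow-derived macrophages (BMDMs) with and without gasdermin D. The members were chosen by name as the rows of the count table with the symbols Ctsk, Ctsa, Ctsb, Ctsc, Ctsd, Ctsf, Ctsh, Ctsl, Ctss and Ctsz, which are 10 of the 54532 genes listed. A rise of Ctsk in these data was already known when they were chosen. The p-values of Ctsk therefore describe that rise and are not an independent test of it. BMDMs are macrophages grown from marrow cells in macrophage colony-stimulating factor (M-CSF), here at 20 ng/ml for 6 days. The sample labels name no further treatment, and the study does not state one for the sequenced cells. Its methods describe macrophages kept in medium alone or given the cytokine TSLP, depending on the assay. RNA-seq libraries were made from 4 WT and 4 Gsdmd-/- samples. The study's methods give the marrow donors as female C57BL/6J mice aged 6 to 8 weeks. The WT mice were bought from a supplier, whereas the Gsdmd-/- mice came from another laboratory and were kept in the university's own facility. The sources used here do not say whether the groups were littermates, so genotype and colony cannot be told apart. Whether the 4 libraries of a genotype stem from different mice is likewise not given, and p-values therefore measure only the spread between these libraries.

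Cathepsins are made as inactive precursors, carried to the lysosome mostly by mannose 6-phosphate tags, and activated there by acid. Most are cysteine proteases of the papain family, while cathepsin D is an aspartic protease and cathepsin A a serine carboxypeptidase. Macrophages use them to break down engulfed material and to prepare peptides and the invariant chain for MHC class II, and cathepsin K is best known as the collagen-degrading enzyme of osteoclasts, which arise from the same marrow precursors.

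Expression was measured as CPM, the read counts of a gene scaled to a common library size. Total counts per library ranged from 14935114 to 16794810. Gsdmd itself was at 73.8, 63.5, 68.5 and 95.5 CPM in WT 1 to 4 and at 18.2, 14.4, 16.3 and 16.0 CPM in Gsdmd-/- 1 to 4. Its log2 fold change was -2.22 (SE 0.139, adjusted p = 4.665e-05 by edgeR's quasi-likelihood test with Benjamini-Hochberg adjustment), and it was low in every library labelled Gsdmd-/-, although reads on the gene remained there. All 10 macrophage markers examined passed the filter on low counts, with Lyz2 between 12999 and 20757 CPM and Csf1r between 938 and 1311 CPM. Of these 10, 7 had a log2 fold change below 0 and 3 above, none passed the cutoff, and Adgre1 (F4/80) was lower without overlap (log2 fold change -0.24, unadjusted p = 0.0182, adjusted p = 0.310). Without WT 2 and WT 3, described next, 8 of 10 were below 0 and 3 were lower at an unadjusted p under 0.05, beside 6.80% of all genes. These were Fcgr1, an Fc receptor, at -0.85 (adjusted p = 0.0320) after -0.082 with them, Csf1r at -0.35 (unadjusted p = 0.00321) after -0.15, and Cd14 at -0.40 (unadjusted p = 0.0255) after -0.086, while Adgre1 was at -0.14 (unadjusted p = 0.145), Cd68 at -0.26 after 0.16 and Mertk at 0.054 after -0.48. On the first principal component, which held 43.6% of the variance, WT 2 and WT 3 lay at 45.4 and 38.8 and the other 6 libraries between -25.9 and -7.19. These 2 libraries also stood apart in several cathepsins, and values without them are given beside many of the results. Such values rest on 2 WT libraries, WT 1 and WT 4, against 4 Gsdmd-/- libraries. The libraries left out were picked from these same data, and no label gives a reason to leave them out. Values without them therefore show how far a result depends on them and are not a separate test. In RNA from whole cultures, fewer cells of a type and less RNA per cell cannot be told apart.

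In all 8 libraries together, Ctsk was the only one of the 10 cathepsins whose expression was higher in Gsdmd-/- BMDMs at the cutoff that the study drew, an unadjusted p under 0.05 together with a log2 fold change that is 0.5 or more in size. At that cutoff 1.54% of the 12911 genes tested were higher in Gsdmd-/- and 3.28% were lower, and no cathepsin was lower. Without WT 2 and WT 3 the cathepsins higher at this cutoff were 2 of 10, Ctsk and Ctsf, beside 3.05% of all genes. All 10 members passed the filter on low counts. By the quasi-likelihood test 0 of 10 reached an adjusted p under 0.05 (0.349% of all genes did), and 1 of 10 had an unadjusted p under 0.05. At an adjusted p under 0.05 the exact test of edgeR called 1 of 10, beside 1.89% of all genes, and DESeq2 1 of 10, beside 2.26% of all genes, and the gene called was Ctsk both times. Limma voom called 0. Of all genes, 4.74% were higher and 7.30% lower at an unadjusted p under 0.05. The other 9 cathepsins had a median log2 fold change of 0.0091, beside -0.00685 for all genes tested.

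Ctsk (ENSMUSG00000028111, chr3:95499256-95509362, plus strand, GRCm38) encodes cathepsin K, a cysteine endopeptidase that cleaves collagen and elastin. It was expressed at 243, 206, 239 and 301 CPM in WT 1 to 4 and at 349, 327, 470.1 and 402 CPM in Gsdmd-/- 1 to 4. Every Gsdmd-/- library lay above every WT library, with WT 4 the nearest of the WT libraries and Gsdmd-/- 2 the nearest on the other side. The means were 247 ± 39.6 and 387 ± 63.8 CPM in WT and Gsdmd-/- (SD, n = 4 each). This was a 1.56-fold difference (95% interval 1.26 to 1.95), or 0.65 on the log2 scale (SE 0.142, unadjusted p = 0.00101, adjusted p = 0.113 by the quasi-likelihood test). A two-sided exact permutation test on log2 CPM gave p = 0.0286, the smallest that 4 against 4 libraries allow. The lack of overlap fixes this p, so it adds nothing to that observation. Of the 12911 genes, 114 had a lower p, and the log2 fold change of Ctsk stood at the 98.3 percentile of all genes. Genes whose CPM did not overlap between the genotypes made up 7.60% of all genes, and Ctsk was 1 of 10 cathepsins among them. The adjusted p depended on the test, at 0.00477 by the exact test of edgeR, 0.00280 by DESeq2 and 0.0412 by the quasi-likelihood test without WT 4.

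**Figure D1:**
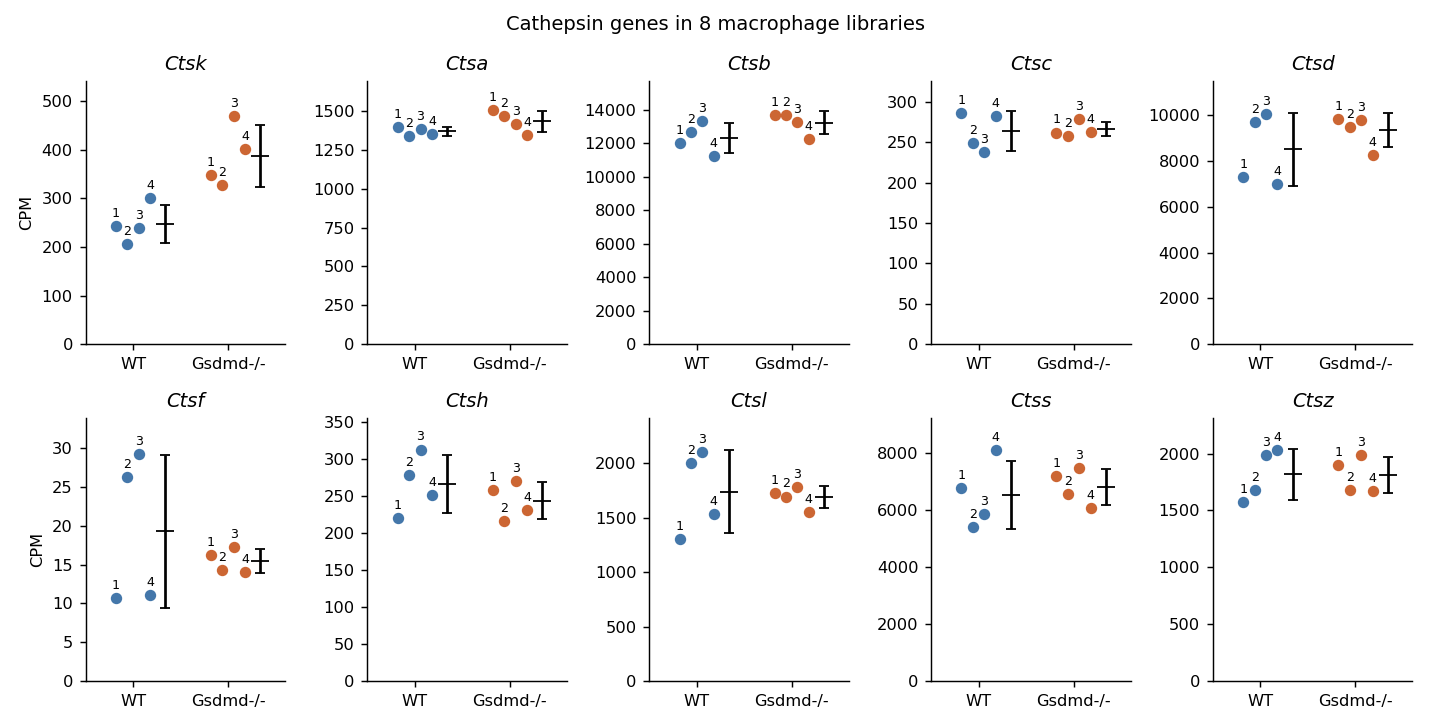
CPM of the 10 cathepsin genes in each library (vertical axes from 0, 1 panel per gene), with the replicate number above each point and the mean and SD (n = 4) beside each genotype. The Gsdmd-/- points of Ctsk lie between 327 and 470.1 CPM, all above the WT points, and the genotypes overlap in the other 9 panels.

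Ctss (ENSMUSG00000038642, chr3:95526786-95556403, plus strand), which encodes cathepsin S, the cysteine endopeptidase that trims the invariant chain from MHC class II, begins 17423 bases beyond the end of Ctsk. It did not pass the test. Its values were 6783, 5415, 5865 and 8126 CPM in WT 1 to 4 and 7192, 6571, 7494 and 6084 CPM in Gsdmd-/- 1 to 4. The Gsdmd-/- libraries all fell within the WT range, and the log2 fold change was 0.062 (95% interval -0.24 to 0.36, adjusted p = 0.894). The number of Ctsk reads per 100 Ctss reads was 3.58, 3.80, 4.07 and 3.71 in WT 1 to 4 and 4.85, 4.97, 6.27 and 6.60 in Gsdmd-/- 1 to 4, with no overlap. On the log2 scale the intervals of Ctsk (0.33 to 0.96) and Ctss (-0.24 to 0.36) overlapped. The 250 bases before the RefSeq start of each of these neighbours are shown because Ctsk passed the cutoff and Ctss did not. They come from RefSeq on GRCm38.p6, at chr3:95498960-95499209 for Ctsk and chr3:95526536-95526785 for Ctss, both on the plus strand and written 5′ to 3′, and capitals mark matches to GGAAAA or its complement TTTTCC, the core letters bound by NFAT factors.
Ctsk: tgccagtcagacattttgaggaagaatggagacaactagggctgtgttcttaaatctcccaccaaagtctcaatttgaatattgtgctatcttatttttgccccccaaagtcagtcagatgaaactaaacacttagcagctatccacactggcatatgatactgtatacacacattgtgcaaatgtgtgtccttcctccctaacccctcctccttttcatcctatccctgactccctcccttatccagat
Ctss: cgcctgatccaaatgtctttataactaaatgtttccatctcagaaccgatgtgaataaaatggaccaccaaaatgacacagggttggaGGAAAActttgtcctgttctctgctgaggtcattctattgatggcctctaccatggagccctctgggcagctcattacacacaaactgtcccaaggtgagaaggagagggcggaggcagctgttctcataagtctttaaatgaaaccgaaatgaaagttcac
The Ctss window held 1 match, 162 bases before the start, and the Ctsk window held none. Of 32851 RefSeq windows of this length, 20.4% held such a match. A match is a run of letters and not a bound site, and its absence concerns this window alone.

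None of the other cysteine endopeptidases passed the test in all 8 libraries. Ctsl (ENSMUSG00000021477, chr13:64359337-64370890, minus strand) encodes cathepsin L, which degrades a broad range of proteins. It was expressed at 1302, 2003, 2107 and 1534 CPM in WT 1 to 4 and at 1725, 1695, 1784 and 1549.8 CPM in Gsdmd-/- 1 to 4. WT 1 and WT 4 lay below all Gsdmd-/- libraries and WT 2 and WT 3 above them. The means were 1737 ± 382 and 1689 ± 99.7 CPM (SD, n = 4 each), and the log2 fold change was -0.040 (95% interval -0.37 to 0.29, adjusted p = 0.942). Ctsb (ENSMUSG00000021939, chr14:63122462-63145923, plus strand) encodes cathepsin B, which also removes dipeptides from the carboxyl end. It had the most reads of the 10, at 12029, 12688, 13314 and 11259 CPM in WT 1 to 4 and 13723, 13674, 13285 and 12281 CPM in Gsdmd-/- 1 to 4. The highest 2 values were from Gsdmd-/- and the lowest 2 from WT, but the genotypes overlapped, and the log2 fold change was 0.10 (95% interval -0.10 to 0.31, adjusted p = 0.708). That of Ctsb was 0.065 without WT 4. Without WT 2 and WT 3 it was 0.18 (unadjusted p = 0.0692, adjusted p = 0.435 by the quasi-likelihood test). Ctsf (ENSMUSG00000083282, chr19:4855130-4860918, plus strand) encodes cathepsin F, another enzyme able to process the invariant chain, and had the fewest reads. Its values were 10.7, 26.3, 29.3 and 11.1 CPM in WT 1 to 4 and 16.2, 14.3, 17.3 and 14.1 CPM in Gsdmd-/- 1 to 4. The 4 Gsdmd-/- libraries lay between the 2 pairs of WT libraries, and the log2 fold change of -0.32 had a wide interval (-1.01 to 0.37, adjusted p = 0.736). It was 0.50 (unadjusted p = 0.00399, adjusted p = 0.127) without WT 2 and WT 3 and then passed the cutoff.

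None of the 3 cysteine exopeptidases, which trim peptides from their ends, passed the test. Ctsc (ENSMUSG00000030560, chr7:88278085-88310888, plus strand) encodes cathepsin C, the dipeptidyl peptidase that activates the serine proteases of granules. It was at 286, 249, 238 and 283 CPM in WT 1 to 4 and at 262, 258, 279 and 263 CPM in Gsdmd-/- 1 to 4. The Gsdmd-/- libraries again fell between the 2 pairs of WT libraries, this time with WT 2 and WT 3 lowest, and the log2 fold change was 0.0091 (95% interval -0.18 to 0.20, adjusted p = 0.980). Ctsh (ENSMUSG00000032359, chr9:90054152-90076089, plus strand) encodes cathepsin H, an aminopeptidase. It was at 221, 279, 313 and 251 CPM in WT 1 to 4 and at 258, 216, 271 and 231 CPM in Gsdmd-/- 1 to 4, with a log2 fold change of -0.13 (95% interval -0.39 to 0.14, adjusted p = 0.731). Ctsz (ENSMUSG00000016256, chr2:174427493-174439039, minus strand) encodes cathepsin Z, a carboxypeptidase also named cathepsin X. It was at 1574, 1683, 1986 and 2032 CPM in WT 1 to 4 and at 1899, 1682, 1985 and 1669 CPM in Gsdmd-/- 1 to 4. The genotypes overlapped throughout, and the log2 fold change was -0.0080 (95% interval -0.25 to 0.24, adjusted p = 0.987).

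The cathepsins of other catalytic classes did not pass the test either. Ctsd (ENSMUSG00000007891, chr7:142375911-142388038, minus strand) encodes cathepsin D, the main aspartic protease of the lysosome. It was at 7303, 9686, 10053 and 6986 CPM in WT 1 to 4 and at 9831, 9477, 9775 and 8244 CPM in Gsdmd-/- 1 to 4. WT 1 and WT 4 lay below all Gsdmd-/- libraries, whereas WT 2 lay among them and WT 3 above them. The means were 8507 ± 1586 and 9332 ± 742 CPM (SD, n = 4 each), and the log2 fold change was 0.13 (95% interval -0.17 to 0.44, adjusted p = 0.749). Ctsa (ENSMUSG00000017760, chr2:164832873-164841032, plus strand) encodes cathepsin A, the carboxypeptidase that shields β-galactosidase and neuraminidase in the lysosome. It was at 1398, 1339, 1385 and 1350.3 CPM in WT 1 to 4 and at 1502, 1469, 1414 and 1346 CPM in Gsdmd-/- 1 to 4. In 3 Gsdmd-/- libraries it was above every WT library and in Gsdmd-/- 4 it was within the WT range, with a log2 fold change of 0.067 (95% interval -0.10 to 0.24, adjusted p = 0.777).

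The difference seen in Ctsk was therefore compared with the intervals of the other members. Of these 9 cathepsins, 5 had a log2 fold change above 0 and 4 below, and all 9 intervals held 0. In the 6 libraries other than WT 2 and WT 3, 7 of the 9 were above 0 and 2 below, and the intervals of 3 (Ctsd, 0.16 to 0.61, Ctsf, 0.20 to 0.80, and Ctsl, 0.026 to 0.47) lay above 0. The lowest unadjusted p among the 9 was 0.286 in all 8 libraries. In 6 of the 9 the upper bound of the interval lay below 0.33, the lower bound for Ctsk, and those of Ctsd (0.44), Ctsf (0.37) and Ctss (0.36) lay above it. Without WT 2 and WT 3 the lower bound for Ctsk was 0.16, and the upper bound lay below it in 2 of the 9, Ctsc and Ctss. The log2 ratio of Ctsk to Ctsc, Ctsh, Ctss and Ctsz was higher in every Gsdmd-/- library than in every WT library, which was the case for 49.1% of the other 12910 genes. Relative to Ctsa, Ctsb, Ctsd, Ctsf and Ctsl the ratios overlapped between the genotypes. For Ctsb the ratio lay between -5.94 and -5.22 in WT and between -5.39 and -4.82 in Gsdmd-/-. Ctsk made up 0.780%, 0.614%, 0.672% and 0.938% of the reads on the 10 cathepsins in WT 1 to 4 and 0.949%, 0.923%, 1.28% and 1.25% in Gsdmd-/- 1 to 4. The genotypes overlapped here, with WT 4 above Gsdmd-/- 2. Together the 10 genes held between 3.16% and 3.50% of all reads in WT and between 3.24% and 3.69% in Gsdmd-/-, and Ctsb, Ctsd and Ctss took between 82.1% and 84.0% of that.

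**Figure D2:**
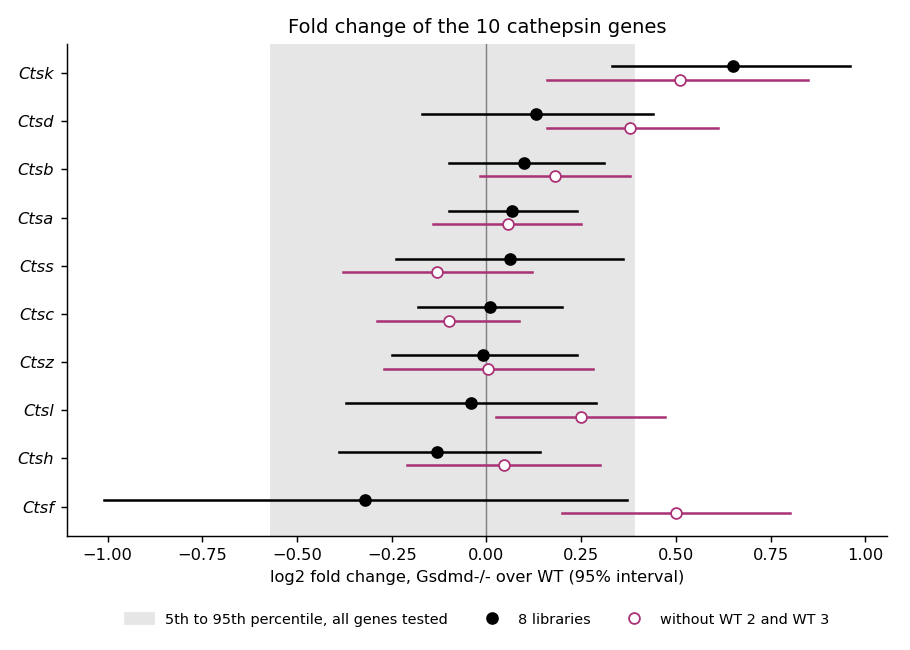
Log2 fold change of Gsdmd-/- over WT (horizontal axis) with its 95% interval for each cathepsin gene, from all 8 libraries (filled black points) and without WT 2 and WT 3 (open points). The shaded band spans the 5th to 95th percentile of the log2 fold changes of all genes tested, -0.57 to 0.39, and the filled point of Ctsk at 0.65 lies to its right.

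In 8 of the 10 cathepsins WT 2 and WT 3 both lay on the same side of WT 1 and WT 4, as they did in 58.1% of all genes tested. They held the highest 2 WT values of Ctsb, Ctsd, Ctsf, Ctsh and Ctsl, and the lowest 2 of Ctsk, Ctsc and Ctss. Of all genes tested, 29.4% had their highest 2 WT values there and 28.7% their lowest 2. The SD of CPM was larger in WT than in Gsdmd-/- for 8 of 10 members, as it was for 72.0% of all genes tested. Without these 2 libraries the log2 fold change of Ctsk was 0.51 (SE 0.154, 95% interval 0.16 to 0.85, unadjusted p = 0.00899, adjusted p = 0.178 by the quasi-likelihood test). In the same 6 libraries Ctsd had a log2 fold change of 0.38 (SE 0.0998, unadjusted p = 0.00372, adjusted p = 0.125) and Ctsf one of 0.50 (SE 0.133, unadjusted p = 0.00399, adjusted p = 0.127). Ctsl then had a log2 fold change of 0.25 (SE 0.0998, unadjusted p = 0.0324, adjusted p = 0.314). Thus 4 of 10 cathepsins were higher at an unadjusted p under 0.05 without WT 2 and WT 3, beside 6.32% of the 13288 genes then tested, and 0 were lower. None passed the adjusted p in these 6 libraries, and Ctss and Ctsc had log2 fold changes of -0.13 and -0.10. WT 1 and WT 4 were then the only WT libraries, and the 2 left out were picked from these same data. Their removal lowers the WT mean of genes that were high in them, so these counts are not a separate test.

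**Figure D3:**
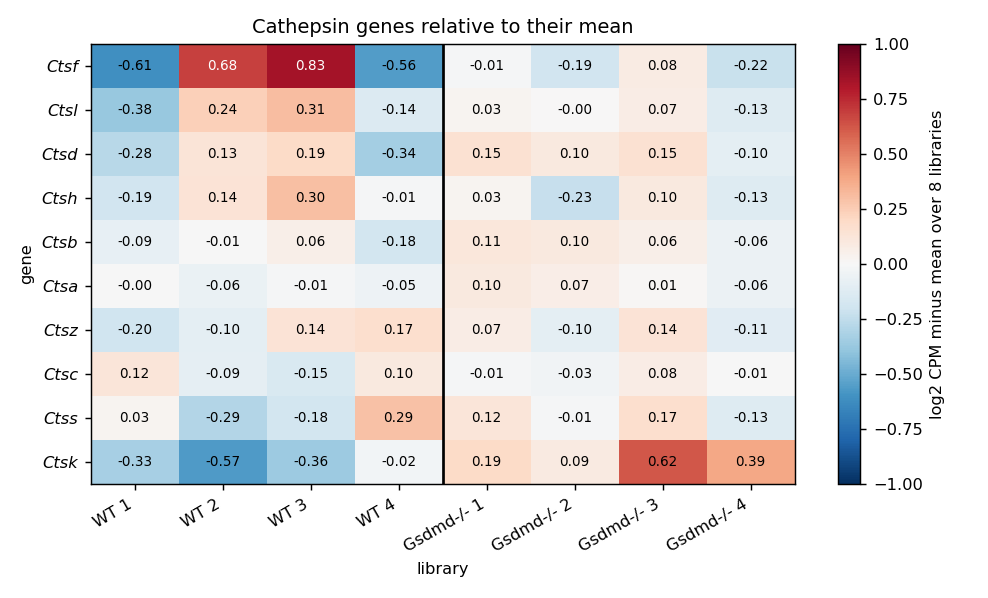
Log2 CPM of each cathepsin gene minus its mean over the 8 libraries (colour scale and printed values, log2 units), with genes in rows, libraries in columns and a line between the genotypes. WT 2 and WT 3 are at 0.68 and 0.83 for Ctsf, above all other libraries, while Ctsk is above its mean only in the 4 Gsdmd-/- libraries.

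The levels of the genes were compared per length, as mean CPM per kilobase of exon in WT. The length counts every base that is exon in any annotated transcript, from 1358 bases for Ctss to 6489 for Ctsl. It can exceed the length of any single transcript, so the order depends on this choice of length. The order was Ctss at 4821, Ctsd at 3619, Ctsb at 2036, Ctsz at 1262, Ctsa at 290.1, Ctsl at 268, Ctsk at 164, Ctsh at 59.1, Ctsc at 45.4 and Ctsf at 3.84. Neighbours in this order overlapped between WT libraries for Ctss and Ctsd, for Ctsa and Ctsl, and for Ctsh and Ctsc. In Gsdmd-/- the order of the means was the same, with Ctsk at 256 beside Ctsl at 260.2 CPM per kilobase. Not divided by length, the means of Ctsk and Ctsl there were 387 and 1689 CPM. Within each genotype the log2 CPM of Ctsk varied most like that of Ctss among the members (r = 0.699 over 8 libraries after the mean of each genotype was subtracted), followed by Ctsc (r = 0.622) and Ctsz (r = 0.559). It varied least like that of Ctsb (r = -0.618) and Ctsd (r = -0.506). These correlations are a description over 8 libraries, which include WT 2 and WT 3, and carry no test.

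The windows before the RefSeq starts were also searched for CACGTG, which is its own complement and is the core of the element bound by the lysosomal transcription factor TFEB and its relatives. Windows were read for 8 of the 10 members, all but Ctsb and Ctsh, and Ctsa had 2 of the 9. CACGTG was found in 4 members, Ctsa, Ctsd, Ctsf and Ctsl, and in 6.02% of all 32851 windows. The short stretches that hold it are shown for comparison, 5′ to 3′ on the strand of the gene with the match in capitals. They lie at chr2:164833752-164833772 (plus), chr7:142388058-142388077 (minus), chr7:142387911-142387934 (minus), chr19:4855077-4855100 (plus) and chr13:64370742-64370765 (minus) of GRCm38.p6, in the order of the lines. The RefSeq starts are not all the ends of the GENCODE genes given above. The stretch of Ctsa, which lies before the later of 2 RefSeq starts, begins 879 bases inside the GENCODE gene, the nearer one of Ctsd 104 bases inside and that of Ctsl 125 bases inside, while the farther one of Ctsd and that of Ctsf lie outside.
Ctsa, 12 bases before the RefSeq start: gcaaactgtCACGTGatgcag
Ctsd, 245 bases before the RefSeq start: tccccCACGTGacctgtatc
Ctsd, 98 bases before the RefSeq start: cccgcgtctCACGTGacccgttga
Ctsf, 79 bases before the RefSeq start: cccgtggtcCACGTGcctcgcgta
Ctsl, 236 bases before the RefSeq start: gttagaagcCACGTGctgatctaa
No match was found in the windows of Ctsk, Ctss, Ctsc and Ctsz or in the other window of Ctsa. Of the members with a match, Ctsd, Ctsf and Ctsl had their highest WT values in WT 2 and WT 3, and Ctsa did not. Ctsb and Ctsh, whose windows were not searched, also had their highest WT values there, as did 29.4% of all genes tested. Whether a match bears on these values was not tested. CATGTG and its complement CACATG were in no member's window and in 12.3% of all windows. GGAAAA or TTTTCC was found in Ctsf and Ctsl beside Ctss.

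The table lists 13 other genes named cathepsin, of which 8 had 0 counts in all libraries and 2 passed the filter on low counts. Ctso, a papain-like cathepsin of wide expression, had means of 40.6 ± 2.49 and 45.7 ± 3.95 CPM in WT and Gsdmd-/- (SD, n = 4 each). Its log2 fold change was 0.17 (unadjusted p = 0.0909, adjusted p = 0.508). Ctse, an aspartic protease found in endosomes, was at 5.17, 0.306, 0.855 and 3.53 CPM in WT 1 to 4 and between 3.91 and 4.97 CPM in Gsdmd-/-. It was low in WT 2 and WT 3, and its log2 fold change was 0.83 with (adjusted p = 0.628) and 0.010 without those 2 libraries. Ctsg, the granule protease of neutrophils, had 2 counts in all libraries together, and Ctsw, of cytotoxic lymphocytes, at most 3 in any library. A count of 3 corresponded to between 0.1774 and 0.199 CPM, which is the level that a count of 0 allows.

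The partners of the cathepsins were examined in 4 lists of 41 genes in all, of which 39 were in the table and 30 were tested. None of the 30 passed the cutoff in either direction or an adjusted p under 0.05, while 4 were higher and 1 was lower at an unadjusted p under 0.05, beside 4.74% higher and 7.30% lower of all genes tested. Their median log2 fold change was -0.030, with 12 above 0 and 18 below. In the 6 libraries other than WT 2 and WT 3 the median was 0.050, with 19 above 0 and 11 below, and 5 were higher and 3 lower at an unadjusted p under 0.05, beside 6.32% and 6.80% of all genes then tested. Those 5 were Sort1, Serpinb6a, Glb1 (0.23), Lamp1 (0.18) and Lamp2 (0.22, after 0.032 in all 8 libraries). The 3 lower ones were Lgmn, Mitf and Tfec. Among the 6 inhibitors tested, the highest CPM was that of Cst3, which encodes the secreted inhibitor cystatin C. Its means were 1055 ± 172 and 1039 ± 115 CPM in WT and Gsdmd-/- (SD, n = 4 each). Cst7, a cystatin of the endolysosome, had the highest log2 fold change of the inhibitors, 0.83, with values between 0.0611 and 1.42 CPM (adjusted p = 0.617), and Serpinb1a, an inhibitor of granule serine proteases, the lowest, -0.31 (adjusted p = 0.688). These were at 0.20 and 0.11 without WT 2 and WT 3, where Cst6 was highest at 0.64 (unadjusted p = 0.273) and Serpinb6a was at 0.35 (unadjusted p = 0.0183, adjusted p = 0.244) after 0.078 with them. Among the 7 processing and stabilising partners, Psap, the precursor of the saposins, had the highest CPM, with means of 15682 ± 1038 and 15270.1 ± 727 CPM in WT and Gsdmd-/- (SD, n = 4 each). Glb1, the β-galactosidase that cathepsin A shields, was at 96.9, 97.7, 102 and 92.1 CPM in WT 1 to 4 and at 112, 114, 111 and 107 CPM in Gsdmd-/- 1 to 4. The genotypes of Glb1 did not overlap, and the log2 fold change was 0.19 (unadjusted p = 0.0210, adjusted p = 0.325). Lgmn, the asparaginyl endopeptidase that cleaves several cathepsins into 2 chains, had the lowest of this list, -0.19 (adjusted p = 0.686), and was at -0.39 (unadjusted p = 0.0329, adjusted p = 0.317) without WT 2 and WT 3.

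Among the 13 genes of tagging and sorting, Vps35, a retromer subunit that returns sorting receptors from endosomes, had the highest log2 fold change. It was at 264, 238, 231 and 264 CPM in WT 1 to 4 and at 280.2, 304, 317 and 308 CPM in Gsdmd-/- 1 to 4, without overlap, with a log2 fold change of 0.28 (unadjusted p = 0.00684, adjusted p = 0.233). The log2 fold change of Vps35 was 0.19 (unadjusted p = 0.0594) without WT 2 and WT 3. Lamp1, a structural membrane protein of the lysosome, had the highest CPM of the list, with means of 1939 ± 37.0 and 2176 ± 51.9 CPM in WT and Gsdmd-/- (SD, n = 4 each, unadjusted p = 0.0480, adjusted p = 0.408). Sort1, the sorting receptor sortilin, had the lowest, -0.33 (adjusted p = 0.749), with 486 and 434 CPM in WT 2 and WT 3 and between 147 and 281 CPM in the other 6 libraries. Without those 2 libraries its log2 fold change was 0.58 (unadjusted p = 0.00310, adjusted p = 0.113), and it was then the 1 partner gene that was higher at the cutoff. The 4 MiT factors, the family of TFEB, were all tested. Tfeb had means of 67.4 ± 3.70 and 79.9 ± 9.73 CPM in WT and Gsdmd-/- (log2 fold change 0.24, unadjusted p = 0.0332, adjusted p = 0.366), and Tfec means of 81.0 ± 5.18 and 66.3 ± 3.82 CPM (log2 fold change -0.29, unadjusted p = 0.00505, adjusted p = 0.212). Without WT 2 and WT 3 Tfeb had a log2 fold change of 0.20 (unadjusted p = 0.129) and Tfec one of -0.29 (unadjusted p = 0.0158). Mitf, which osteoclasts also require, was at -0.16 (unadjusted p = 0.216) with all libraries and at -0.36 (unadjusted p = 0.00673, adjusted p = 0.156) without those 2. Tfe3, with the highest CPM of the family, had means of 120.3 ± 7.00 and 113 ± 3.89 CPM (SD, n = 4 each).

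Because Ctsk is best known from osteoclasts, 16 other osteoclast genes were examined, of which 14 were tested. At the cutoff 2 of 14 were higher in Gsdmd-/- (1.54% of all genes were), 2 of 14 were lower (3.28% of all genes), and none passed an adjusted p under 0.05. The median log2 fold change of the list was -0.041, and it was 0.018 without WT 2 and WT 3, where 7 genes were above 0 and 7 below and 5 were higher and 2 lower at an unadjusted p under 0.05 (6.32% and 6.80% of all genes). Those 5 were Itgb3, Acp5, Atp6v0d2 (0.35), Tcirg1 (0.20) and Ostm1 (0.23), the last 2 being subunits of the proton pump and of a chloride transporter. Itgb3, the integrin β3 chain of the osteoclast attachment zone, was at 95.8, 139, 125 and 68.1 CPM in WT 1 to 4 and at 166, 193, 159.7 and 202 CPM in Gsdmd-/- 1 to 4. The genotypes did not overlap, and the log2 fold change was 0.75 (SE 0.194, unadjusted p = 0.00292, adjusted p = 0.174). It was 1.13 (SE 0.162, adjusted p = 0.0121) without WT 2 and WT 3. Mmp9, a gelatinase, was higher too, with values between 0.244 and 1.53 CPM (log2 fold change 1.21, SE 0.385, unadjusted p = 0.0101, adjusted p = 0.264). It had 8, 6, 4 and 13 counts in WT 1 to 4 and 17, 18, 13 and 23 in Gsdmd-/- 1 to 4, so it passed the filter on low counts mainly through the group where it was higher, and Itgb3 alone was higher at the cutoff where 10 counts were asked of every library. Its log2 fold change was 0.78 (unadjusted p = 0.0909) without WT 2 and WT 3. Acp5, the tartrate-resistant acid phosphatase by which osteoclasts are stained, was at 35.8, 137, 153 and 42.6 CPM in WT 1 to 4 and between 43.0 and 52.2 CPM in Gsdmd-/-. It was high in WT 2 and WT 3 alone, and its log2 fold change was -0.95 (SE 0.418, unadjusted p = 0.0459, adjusted p = 0.401). Without these 2 libraries that of Acp5 was 0.28 (SE 0.114, unadjusted p = 0.0343, adjusted p = 0.324). Dcstamp, which osteoclast precursors need for fusion, had means of 159 ± 23.8 and 103 ± 34.7 CPM in WT and Gsdmd-/- (SD, n = 4 each) and a log2 fold change of -0.63 (unadjusted p = 0.0143, adjusted p = 0.292). Ocstamp, another gene of osteoclast fusion, was at -0.77 on the log2 scale (unadjusted p = 0.111) with all libraries and at -1.23 (unadjusted p = 0.0183, adjusted p = 0.244) without WT 2 and WT 3, where Ocstamp and Dcstamp (-0.66) were lower at the cutoff and Acp5 was not. Atp6v0d2, a proton pump subunit of osteoclasts and macrophages with the highest CPM of the list, had means of 1262 ± 73.8 and 1527 ± 38.4 CPM in WT and Gsdmd-/- (SD, n = 4 each, log2 fold change 0.27, unadjusted p = 0.00584, adjusted p = 0.221). Nfatc1, the master regulator of osteoclast formation, was at -0.025 on the log2 scale (adjusted p = 0.951), and Calcr, the calcitonin receptor of mature osteoclasts, had 0 counts in all libraries.

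**Figure D4:**
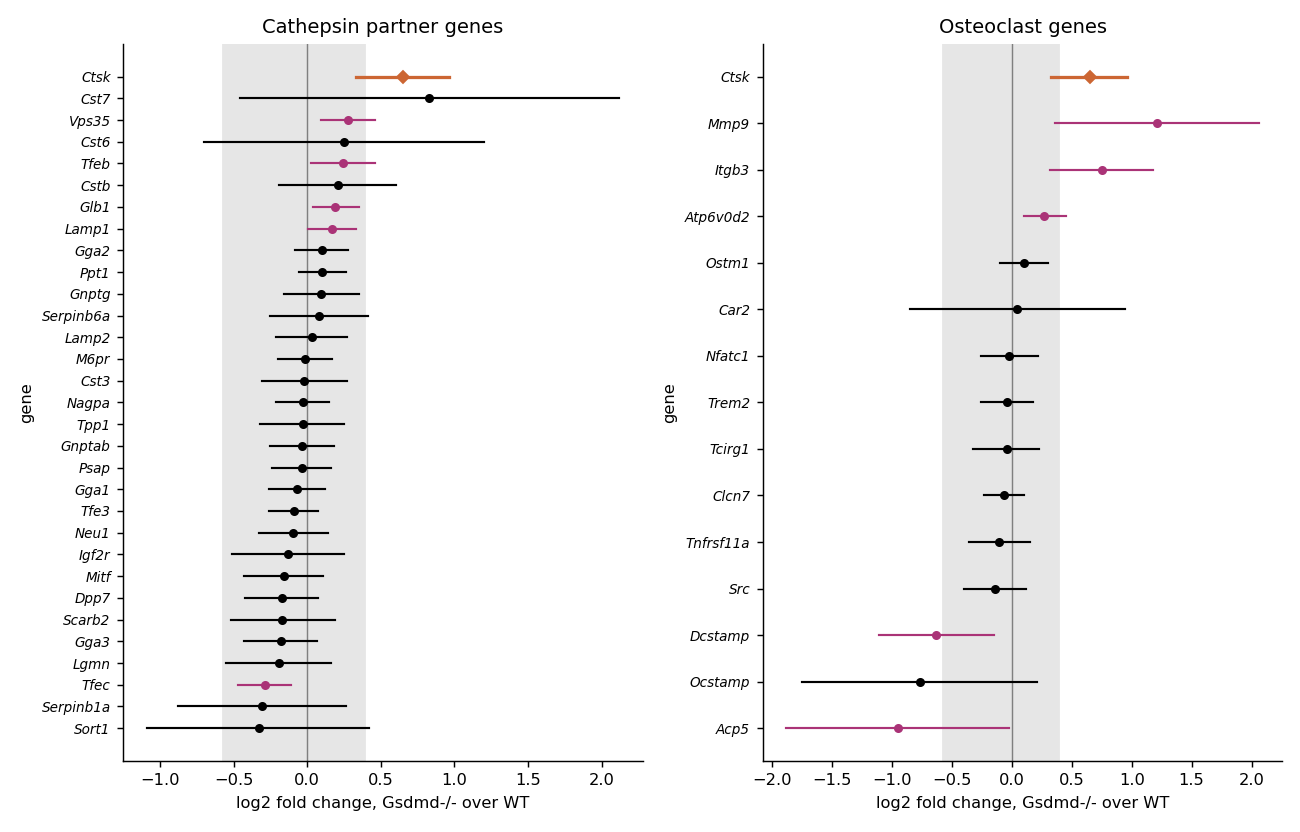
Log2 fold change of Gsdmd-/- over WT (horizontal axes) with its 95% interval for the 30 partner genes tested (left) and the 14 osteoclast genes tested (right), with Ctsk on top of each (diamond). Coloured points have an unadjusted p under 0.05, and the shaded band spans the 5th to 95th percentile of all genes, -0.57 to 0.39.

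Markers of other cells were set beside these values. Summed over the list, neutrophil markers were between 5.36 and 7.94 CPM in WT and between 6.93 and 7.69 CPM in Gsdmd-/-, and Ly6g and Retnlg had 0 counts in all libraries. Lymphocyte markers were between 1.10 and 2.81 CPM in WT and between 0.507 and 1.36 CPM in Gsdmd-/-. Dendritic cell markers, mostly Itgax, were between 2228 and 2372 CPM in WT and between 1674 and 2099 CPM in Gsdmd-/-, with all 4 tested genes below 0 on the log2 scale and 1 of 4 lower at the cutoff (3.28% of all genes were). That gene was Clec9a, at 49.1 and 45.3 CPM in WT 2 and WT 3 and between 14.5 and 18.3 CPM in the other 6 libraries, and its log2 fold change was -0.95 with and -0.061 without those 2. Itgax was lower without overlap, at -0.25 both with and without them (unadjusted p = 0.0240 and 0.0420). Mast cell and basophil markers were between 16.1 and 81.0 CPM in WT and between 53.5 and 75.2 CPM in Gsdmd-/-. Most of this was Kit, at 11.4 and 10.3 CPM in WT 2 and WT 3 and between 46.0 and 71.0 CPM in the others (log2 fold change 0.59 with and -0.19 without those 2). Stromal and endothelial markers were between 28.5 and 70.5 CPM in WT and between 49.7 and 81.9 CPM in Gsdmd-/-. Most of this was Kdr, at 23.6 and 21.1 CPM in WT 2 and WT 3 and between 44.1 and 77.8 CPM in the others (0.62 with and 0.074 without), and Cdh5 was 1 of 2 tested genes that was lower at the cutoff (log2 fold change -0.51 with and -0.38 without those 2 libraries). Erythroid and megakaryocyte markers were between 8.19 and 29.9 CPM in WT and between 12.0 and 17.9 CPM in Gsdmd-/-, and Pf4 was at -0.11 with and -0.57 without those 2 libraries (unadjusted p = 0.0441). The part of such cells in the cathepsin values was not tested.

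The genes around Ctsk and Ctss were examined within 150 kb of either, at chr3:95349256-95706403. Of 20 genes listed there 10 were tested, and Ctsk alone passed the cutoff. The 8 tested genes other than Ctsk and Ctss had a median log2 fold change of -0.12 and ranged from -0.44 (Adamtsl4, adjusted p = 0.440) to 0.23. The highest was Mcl1, an inhibitor of apoptosis, with means of 526 ± 17.8 and 618 ± 24.8 CPM in WT and Gsdmd-/- without overlap (SD, n = 4 each, unadjusted p = 0.0102, adjusted p = 0.264). Setdb1, a histone methyltransferase, had a log2 fold change of -0.22 (unadjusted p = 0.0418, adjusted p = 0.392). Arnt, which lies next to Ctsk on the other side from Ctss, had one of -0.016, Golph3l 0.041, Ensa 0.0025, and the pseudogenes Hmgb1-ps5 and Rps10-ps1 -0.37 and -0.22, all with an unadjusted p above 0.05.

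Of 12027 genes with a mean of at least 1 CPM, those whose log2 CPM followed Ctsk most closely within the genotypes were Clpx (r = 0.994), H2-DMa (r = 0.992), Klrb1a (r = 0.991), Pigp (r = 0.990) and Prdx6 (r = 0.988), over 8 libraries. With so few libraries 277 genes had r of at least 0.9, so the order among them is a description only. Their own log2 fold changes between the genotypes were -0.019, -0.18, -0.16, 0.40 and 0.14, and none of the 5 had an unadjusted p under 0.05.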

How the data were processed

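The authors extracted RNA with Trizol, had TruSeq libraries sequenced, and deposited 1 table of read counts per gene and library, not normalized. The build mm10 is given in the submitters' processing notes, and the aligner and counting tool are not given in the sources used here. Positions and exon lengths were taken from GENCODE M21 (GRCm38), in which 54495 of 54532 genes were found by identifier. Column names were those of the samples, and no 2 replicates agreed within counting noise. TMM factors and the filter filterByExpr of edgeR 4.0.16 (R 4.3.3) were applied, 12911 genes remained, and the genotypes were compared by edgeR's two-sided quasi-likelihood test over all of them with Benjamini-Hochberg adjustment. CPM were computed with these factors, and their log2 values with a prior count of 2. Intervals are 95% intervals. The limit for 0 counts (3 counts) covers counting error only. The fit was also run on simulated data, in which no libraries stood apart as WT 2 and WT 3 do. That run therefore does not show how the test behaves on these libraries.

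Alternatives were limma voom (limma 3.58.1), edgeR's exact test, DESeq2 1.42.0, other normalizations and filters, leaving out libraries, a replicate block and a stricter fold threshold. Replicate numbers did not pair the libraries (correlations of their deviations 0.027, 0.182, 0.041 and -0.201). The members, the gene lists and the tests were chosen with earlier results of these data known. All members and Gsdmd were named. From each partner list and the osteoclast list, genes past a threshold, the highest and lowest log2 fold change and the highest CPM were named, as were tested neighbours within 150 kb of Ctsk or Ctss and the 5 genes most like Ctsk. Nfatc1, Calcr, Oscar, Mitf, Ocstamp, Tcirg1, Ostm1, Cst6, Serpinb6a, Lamp2 and the cell type markers were named after their values were seen, and leaving out WT 2 and WT 3 was extended to the markers and Ctse after seeing the data.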

Additional observations from a re-analysis of the deposited data

Results flagged for a closer look

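Serpinb6a, an intracellular serpin listed among the cathepsin inhibitors, was at 361 CPM in Gsdmd-/- 3, whereas the other Gsdmd-/- libraries lay between 294 and 304 CPM. The gap to the nearest library was 0.851 of the range of the group, beyond Dixon's critical value for 4 samples. The values of 55 genes (the members, Gsdmd and the tested genes of the partner and osteoclast lists) were examined in both genotypes, which is 110 groups, and chance alone sets apart a library in about 1 of 20 groups. No cathepsin had such a library in either genotype.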

How the results depend on the processing

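Ctsk was higher in Gsdmd-/- in all 18 alternatives, with log2 fold changes between 0.51 and 0.76. Its adjusted p passed 0.05 by the exact test of edgeR (0.65), by DESeq2 (0.64) and without a low count filter (0.66, adjusted p = 0.0215), each of which then called 1 cathepsin. Leaving out 1 library gave 0.54 to 0.76, with an adjusted p of 0.0412 to 0.297 and 0 to 1 cathepsins called, the call being without WT 4. The difference of its mean log2 CPM was 0.55 to 0.74 when 1 library was left out, where 3 against 4 libraries allow no permutation p below 0.0571. Without WT 2 and WT 3, 2 cathepsins, 1 partner gene and 1 osteoclast gene were higher at the cutoff and 2 osteoclast genes lower. Of all 13288 genes then tested, 405 were higher and 418 lower. With a log2 fold change of at least 1, 0 cathepsins and 1 osteoclast gene were higher and 0 osteoclast genes lower, beside 59 higher and 140 lower of all 12911 genes. A minimum of 10 counts in every library left 1 osteoclast gene higher (143 higher and 358 lower of 11775 genes). Without WT 4, 3 osteoclast genes were higher (318 higher and 704 lower of 13117 genes). Without a filter 3 were lower (421 higher and 783 lower of 25339 genes). Of the osteoclast genes 1 was lower by voom (239 higher and 320 lower of all genes), 1 by DESeq2 (185 and 431), and 0 to 2 when 1 library was left out. The cause of these differences was not tested.

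The sign of several log2 fold changes turned. Without WT 2 and WT 3, Ctsc was at -0.10, Ctsf at 0.50 (past the cutoff, after -0.32), Ctsh at 0.046, Ctsl at 0.25, Ctss at -0.13 and Ctsz at 0.0036. Ctsz was at 0.0036 with upper-quartile normalization and 0.012 without a filter. Leaving out 1 library gave -0.038 to 0.052 for Ctsc, -0.16 to 0.066 for Ctsl, -0.023 to 0.19 for Ctss and -0.071 to 0.052 for Ctsz. With the sign kept, it gave -0.52 (without WT 1) to -0.049 (without WT 3) for Ctsf, 0.052 (without WT 4) to 0.22 (without WT 3) for Ctsd and -0.20 (without WT 1) to -0.038 (without WT 3) for Ctsh. Ctsa, Ctsb, Ctsd and Gsdmd kept their direction in every alternative run. Over all genes, 45 had an adjusted p under 0.05, beside 244 by the exact test, 292 by DESeq2, 109 without a filter, 161 without WT 2 and WT 3, and 14 to 84 when 1 library was left out. At the cutoff, 199 genes were higher and 424 lower, beside 421 and 783 without a filter, 405 and 418 without WT 2 and WT 3, and 318 and 704 without WT 4. With a replicate block Ctsk was at 0.64 (adjusted p = 0.110), and 25 genes passed the adjusted p. Since the numbers pair no libraries, this fit is given for completeness, and it changed no call of a cathepsin. Depth limits the genes near 3 counts, such as Ctsg, Ctsw and Oscar.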
